A study of Mus musculus with 9 samples.

Results

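Matrix metalloproteinases (MMPs) are zinc-dependent proteases that cut collagens, laminin, elastin and other proteins around cells, and tissue inhibitors of metalloproteinases (TIMPs) bind and block them. MMPs are made as inactive proforms that other proteases activate, and in pancreatic tumours they are known from cancer cells, fibroblasts, macrophages and neutrophils. The genes described here are Mmp2, Mmp3, Mmp7, Mmp9, Mmp11, Mmp12, Mmp13, Mmp14, Timp1 and Timp3, taken as every array probe whose platform annotation carries 1 of these symbols. That gave 10 of the 19057 genes on the array and 18 of its 45281 probes. A filter on dim probes kept 17 of the 18 probes and all 10 genes, out of 11537 genes tested in all.

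RNA from 9 mouse pancreas tumours that arose spontaneously was measured on 1-colour Illumina bead arrays, with 1 array per tumour. The genotypes were KPC;TwistcKO (here Twist cKO, 3 tumours), KPC;SnailcKO (here Snail cKO, 3 tumours) and KPC (3 tumours). All 3 groups carry the KPC background, the usual name of a mouse strain that develops ductal pancreatic cancer, so the KPC tumours are tumours with intact Twist and Snail and not healthy pancreas. The cKO mice lacked expression of Twist or of Snail in the pancreas, per the design text. These transcription factors drive the loss of epithelial character known as the epithelial-to-mesenchymal transition. The design text counts 2 mice per group where the labels hold 3, and all 9 were used as labelled. The labels number the mice 1 to 9 across the groups, so replicates 1 to 3 here only name the tumours within a group and pair none. The sources used here give no Cre driver, age or sex for the mice. Each value is an average over a whole tumour piece, in which fewer cells of a type and less RNA per cell cannot be told apart.

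Snail cKO replicate 2 detected the fewest probes, 16707, against 18864 to 19606 in the other 8 tumours. Twist1 had log2 intensities of 4.60, 4.67 and 5.23 in the Twist cKO tumours, 8.66, 4.65 and 7.56 in Snail cKO and 9.19, 7.46 and 7.25 in KPC, so it was lower in all 3 Twist cKO tumours than in any KPC tumour. Snai1, the gene of Snail, had 7.79, 6.08 and 7.30 in Snail cKO, 7.32, 5.65 and 7.72 in Twist cKO and 7.91, 7.46 and 6.89 in KPC, and its Snail cKO and KPC values overlapped. The sources used here do not place the Snai1 probe relative to the deleted part, and the Snail cKO genotype rests on the label. The tumours differed in the RNA of cell type markers. Twist cKO replicate 2 detected 5 of 12 epithelial and duct markers (Krt7, Krt18 and Krt19 were among those not above background), while the other 8 tumours detected 11 or 12. The arrays fell into 2 sets by their median raw signal, with all 3 KPC tumours and replicate 3 of both cKO groups in set 1, and replicates 1 and 2 of both cKO groups in set 2. This split comes from the data, since the labels give no slide.

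Of the 10 genes, 4 lie in 1 MMP cluster on chromosome 9, in the order Mmp13, Mmp12, Mmp3 and Mmp7, with Mmp1b, Mmp1a, Mmp10, Mmp8, Mmp27 and Mmp20 between them in the RefSeq annotation of GRCm38.p6. Promoters of inducible MMP genes are known for binding sites of AP-1, the Fos and Jun dimer, and of PEA3-type ETS factors. The 250 bases before the annotated start were searched on both strands for 4 motifs, none of which is part of another. They were TGANTCA for AP-1 and, for factors of the PEA3 type, AGGAAG. For the TATA box the letters were TATAAA. For the factor Sp1 the letters were GGGCGG. RefSeq windows were at hand for 8 of the 10 genes, with 10 windows in all, and not for Mmp2 and Mmp9. The AP-1 letters were in 4 of the 10 windows, 1 for each of the 4 genes of the chromosome 9 cluster, against 6.75% of all 32851 windows of this length. The other Mmp12 window, before its first annotated start, held no AP-1 letters, and neither did the other Mmp7 window. The PEA3 letters were in 8 of the 10 windows and 7 of the 8 genes, against 29.48% of windows. These windows include the other Mmp7 window, chr9:7692091-7692340, which lies inside the gene. TATAAA was in 3 of the 10 windows, of Mmp13, Mmp3 and Mmp7, against 12.37% of windows, and GGGCGG was in 4 of the 10, of Mmp11, Mmp14, Timp1 and Timp3, against 32.74% of windows. A match in letters is a description and not a bound site. The 4 cluster promoters are shown because their genes share a neighbourhood and the AP-1 letters, and those of Mmp14 and Timp1 because they hold the PEA3 letters without the AP-1 letters. All 6 are on the plus strand of GRCm38.p6, written 5′ to 3′, with the AP-1 and PEA3 matches in capitals (CTTCCT is AGGAAG on the other strand). The windows are chr9:7272264-7272513 for Mmp13, chr9:7347124-7347373 for Mmp12 (before its second annotated start, inside the gene), chr9:7445572-7445821 for Mmp3, chr9:7691840-7692089 for Mmp7, chr14:54431348-54431597 for Mmp14 and chrX:20869916-20870165 for Timp1.
Mmp13: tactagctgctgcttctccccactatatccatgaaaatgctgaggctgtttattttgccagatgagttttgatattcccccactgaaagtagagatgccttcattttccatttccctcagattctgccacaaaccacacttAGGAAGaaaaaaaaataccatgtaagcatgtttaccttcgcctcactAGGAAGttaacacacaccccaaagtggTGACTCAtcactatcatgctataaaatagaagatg
Mmp12: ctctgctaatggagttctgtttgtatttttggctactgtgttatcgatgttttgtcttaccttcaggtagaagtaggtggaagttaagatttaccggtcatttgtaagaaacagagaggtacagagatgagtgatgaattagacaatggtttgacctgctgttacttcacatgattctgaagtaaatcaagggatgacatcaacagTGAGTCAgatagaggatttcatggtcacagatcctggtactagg
Mmp3: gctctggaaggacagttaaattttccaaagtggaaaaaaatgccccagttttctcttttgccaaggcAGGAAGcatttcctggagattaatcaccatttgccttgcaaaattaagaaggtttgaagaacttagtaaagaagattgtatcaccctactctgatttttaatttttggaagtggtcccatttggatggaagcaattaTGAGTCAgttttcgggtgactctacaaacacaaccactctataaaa
Mmp7: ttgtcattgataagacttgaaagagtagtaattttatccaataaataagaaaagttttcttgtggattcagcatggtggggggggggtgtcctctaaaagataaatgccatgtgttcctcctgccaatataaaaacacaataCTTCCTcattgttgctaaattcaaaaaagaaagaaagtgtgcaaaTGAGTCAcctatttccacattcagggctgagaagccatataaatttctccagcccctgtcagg
Mmp14: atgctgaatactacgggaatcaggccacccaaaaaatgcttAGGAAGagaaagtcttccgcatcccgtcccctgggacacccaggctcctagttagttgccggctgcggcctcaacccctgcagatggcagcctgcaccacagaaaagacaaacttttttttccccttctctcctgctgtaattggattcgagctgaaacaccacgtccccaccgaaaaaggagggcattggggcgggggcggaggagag
Timp1: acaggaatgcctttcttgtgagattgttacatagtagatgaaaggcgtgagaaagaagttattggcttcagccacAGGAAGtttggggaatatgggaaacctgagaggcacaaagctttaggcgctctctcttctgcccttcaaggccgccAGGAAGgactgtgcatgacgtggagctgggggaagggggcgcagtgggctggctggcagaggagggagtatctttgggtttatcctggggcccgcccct

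The first base of the AP-1 match lay 35 bases before the annotated start in Mmp13, 46 bases before it in Mmp3 and 63 bases before it in Mmp7. In Mmp12 it lay 44 bases before the second annotated start. The promoter of Mmp13 had PEA3 letters 109 and 62 bases before the start. Those of Mmp3 and Mmp7 had them 183 and 108 bases before it, and the shown Mmp12 window had none. The Mmp12 window before the first annotated start, not shown, had PEA3 letters 87 bases before that start. Timp1 had PEA3 letters 175 and 99 bases before the start, and Mmp14 had them 209 bases before it and the Sp1 letters 19 and 13 bases before it.

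Expression values are given as log2 intensities after background correction and quantile normalization, from the brightest kept probe of each gene. A value is comparable between tumours for the same gene, and not between genes, because each probe has its own brightness. Differences are in log2 units with a standard error (SE) from the limma fit over all genes and a 95% interval. No gene passed an adjusted p of 0.05 in any of the 4 comparisons, so 0% of the 11537 genes was called, and 0 of the 10 MMP and TIMP genes. At an unadjusted limma p under 0.05 there were 409 genes for Twist cKO against KPC, 311 for Snail cKO against KPC, 436 for Snail cKO against Twist cKO and 332 for both cKO groups together against KPC, with none of the 10 members among them in any comparison. The groups overlapped for every member in every comparison. Among all genes tested, the groups did not overlap for 8.06% in Twist cKO against KPC, for 8.69% in Snail cKO against KPC, for 8.22% in Snail cKO against Twist cKO and for 1.93% in both cKO groups against KPC.

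**Figure D1:**
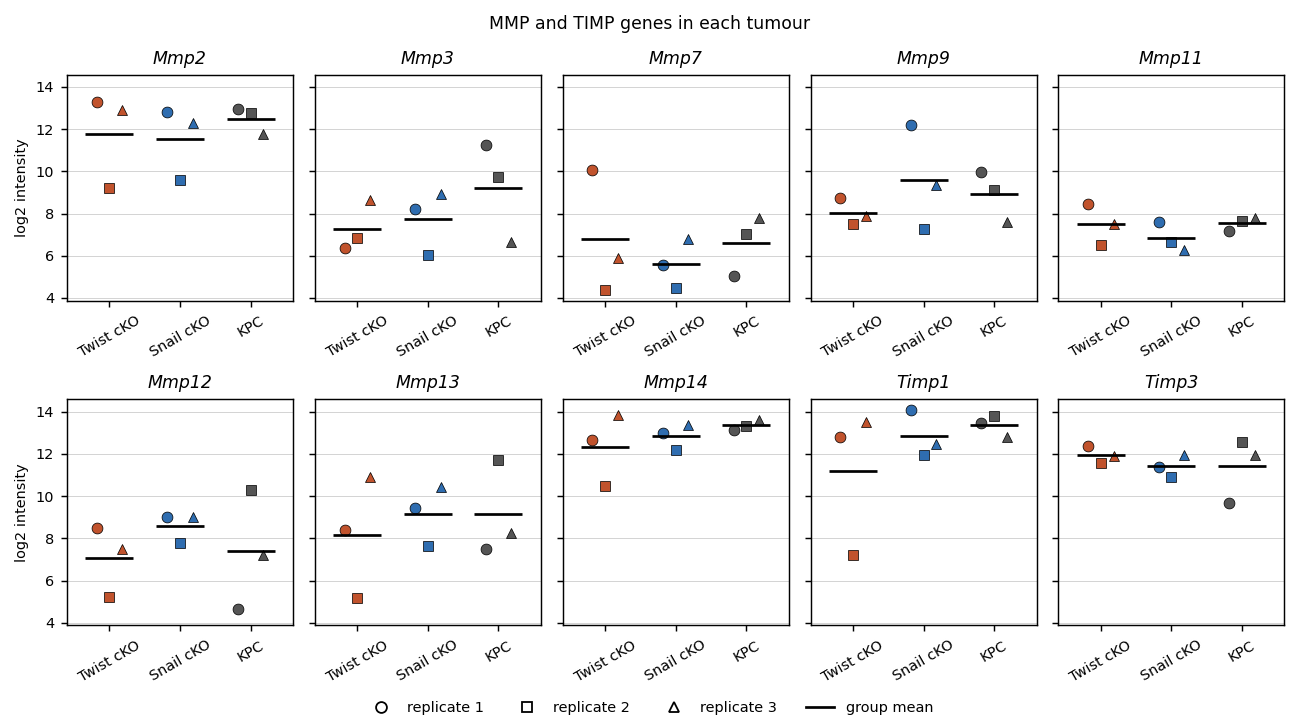
Log2 intensity (vertical axis) of the 10 genes in each of the 9 tumours, in 3 columns for Twist cKO, Snail cKO and KPC, with the replicate shown by the marker shape and the group mean by a line. The points of the 3 groups overlap in every panel, and Twist cKO replicate 2 lies far below the other tumours for Timp1 (7.22) and Mmp13 (5.15).

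The gelatinases MMP2 and MMP9 degrade denatured collagen and the collagen of basement membranes. Mmp2 had 13.27, 9.19 and 12.90 in Twist cKO replicates 1, 2 and 3, 12.80, 9.59 and 12.27 in Snail cKO, and 12.97, 12.75 and 11.76 in KPC. Of the 9 tumours, replicate 2 of both cKO groups were low and the other 7 lay within 11.76 to 13.27, so the cKO values lay on both sides of the KPC values. The Twist cKO minus KPC difference was -0.71 (SE 1.17, interval -3.37 to 1.95) and the Snail cKO minus KPC difference was -0.94 (SE 1.17, interval -3.60 to 1.72). Without Twist cKO replicate 2 the first difference turned to 0.59, and without Snail cKO replicate 2 the second was 0.04.

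Mmp9, made by neutrophils and macrophages as well as by tumour cells, had 8.75, 7.49 and 7.87 in Twist cKO, 12.18, 7.29 and 9.36 in Snail cKO and 9.99, 9.14 and 7.62 in KPC. Snail cKO held both the highest and the lowest of the 9 tumours. Its mean was 9.61 ± 2.46 in Snail cKO, 8.04 ± 0.64 in Twist cKO and 8.92 ± 1.20 in KPC (SD, n = 3 each). The Snail cKO minus Twist cKO difference of 1.57 (SE 1.13, interval -0.99 to 4.14, limma, adjusted p = 0.986) was 0.29 without Snail cKO replicate 1. The Snail cKO minus KPC difference of 0.69 turned to -0.59 without that tumour.

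The stromelysins MMP3 and MMP11 follow. MMP3 cuts proteoglycans and laminin and activates other proforms. Mmp3 had 6.39, 6.83 and 8.62 in Twist cKO, 8.21, 6.02 and 8.93 in Snail cKO and 11.26, 9.72 and 6.66 in KPC. The 2 highest tumours were KPC replicates 1 and 2, each above all 6 cKO tumours, while KPC replicate 3 lay among the low ones. The Twist cKO minus KPC difference was -1.93 (SE 1.21, interval -4.70 to 0.83, limma, adjusted p = 0.978), a fold of 0.262. An exact two-sided permutation test gave p = 0.3, where 3 tumours against 3 cannot go below 0.1. For both cKO groups against KPC the difference was -1.71 (SE 1.05, limma, adjusted p = 0.999), and the exact permutation p was 0.155, with 0.0119 the smallest it can give. Leaving out KPC replicate 1 moved the Twist cKO minus KPC difference to -0.91, and leaving out KPC replicate 3 moved it to -3.21. The Snail cKO minus KPC difference was -1.49 (SE 1.21), and -0.47 without KPC replicate 1. Mmp3 has 3 probes, and all gave a lower cKO mean, with differences of -1.93, -1.96 and -1.72 for Twist cKO against KPC and -1.49, -1.92 and -1.75 for Snail cKO against KPC. With array set as an additive term, the Mmp3 differences from KPC were -0.66 for Twist cKO and -0.22 for Snail cKO, and within set 1 the Twist cKO difference was -0.59.

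MMP11, which is activated inside the cell by furin and is known from fibroblasts next to carcinoma cells, varied least within groups among the members. Mmp11 had 8.45, 6.51 and 7.52 in Twist cKO, 7.62, 6.64 and 6.29 in Snail cKO and 7.18, 7.63 and 7.81 in KPC. The Twist cKO values spread on both sides of KPC (difference -0.05, SE 0.53, interval -1.25 to 1.15). In Snail cKO, replicates 2 and 3 lay below every KPC tumour and replicate 1 did not, for a difference of -0.69 (SE 0.53, interval -1.90 to 0.51).

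Matrilysin, MMP7, is a small protease made mainly by epithelial cells and is known from the ducts of pancreatic cancer. Mmp7 had 10.08, 4.36 and 5.88 in Twist cKO, 5.54, 4.47 and 6.79 in Snail cKO and 5.03, 7.02 and 7.81 in KPC. It was not above background in Twist cKO replicate 2 and Snail cKO replicate 2, where the values are close to the array background. Twist cKO replicate 1 held the highest value of the 9 tumours and Twist cKO replicate 2 the lowest. Accordingly the Twist cKO minus KPC difference of 0.15 (SE 1.39, interval -3.02 to 3.32) became -1.50 without replicate 1 and 1.36 without replicate 2. The Snail cKO minus KPC difference was -1.02 (SE 1.39, interval -4.19 to 2.15). The epithelial and duct markers had their highest median in Twist cKO replicate 1 (1.56 log2 units above their mean) and their lowest in Twist cKO replicate 2 (-5.20). They were nearly as high (1.55) in Snail cKO replicate 2, where Mmp7 was not above background. The neutrophil markers were also highest in Twist cKO replicate 1 (1.46). The part of these markers in the Mmp7 values was not tested.

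Macrophage elastase, MMP12, digests elastin and is known from macrophages. Mmp12 had 8.48, 5.20 and 7.48 in Twist cKO, 9.02, 7.76 and 9.01 in Snail cKO and 4.66, 10.29 and 7.19 in KPC. KPC held both ends of the range, and its replicate 1 was not above background. The Snail cKO tumours lay closest together (8.60 ± 0.72, against 7.05 ± 1.69 in Twist cKO and 7.38 ± 2.82 in KPC, SD, n = 3 each). The Snail cKO minus Twist cKO difference was 1.54 (SE 1.34, interval -1.52 to 4.60, limma, adjusted p = 0.986), and 0.61 without Twist cKO replicate 2. For Snail cKO against KPC it was 1.22 (SE 1.34), and -0.14 without KPC replicate 1. KPC replicate 1, with Mmp12 at background, had the highest macrophage markers of the 9 tumours. All 14 macrophage markers were detected there and summed to an intensity of 73100, against 14100 and 28500 in the other KPC tumours and 10200 to 37600 in the 6 cKO tumours.

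Collagenase MMP13 cuts fibrillar collagen and is the main interstitial collagenase of the mouse. Mmp13 had 8.37, 5.15 and 10.89 in Twist cKO, 9.44, 7.65 and 10.42 in Snail cKO and 7.49, 11.71 and 8.24 in KPC. The highest value, in KPC replicate 2, was 94.4-fold above the lowest, in Twist cKO replicate 2, after background correction. That lowest value was detected but close to background, with a raw signal of 127.1 on an array with a median of 115.4. The size of the fold therefore depends on the background correction. Both cKO differences from KPC were inside the spread, at -1.01 (SE 1.56, interval -4.56 to 2.54) for Twist cKO and 0.03 (SE 1.56, interval -3.52 to 3.58) for Snail cKO. The Twist cKO difference was 0.49 without Twist cKO replicate 2, 0.28 without KPC replicate 2 and 0.99 with array set as a term in the fit. Of the other Mmp13 probes, both dim, 1 was detected on 4 arrays and the other on 5, with Twist cKO minus KPC differences of 0.30 and -0.09.

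MMP14 is anchored in the cell membrane, cuts collagen there and activates the proform of MMP2. Mmp14 had 12.67, 10.48 and 13.83 in Twist cKO, 12.97, 12.19 and 13.38 in Snail cKO and 13.15, 13.33 and 13.60 in KPC. The KPC tumours lay within 13.15 to 13.60, Twist cKO held the highest and the lowest tumour, and Snail cKO replicates 1 and 2 lay below KPC. The differences from KPC were -1.03 (SE 0.75, interval -2.74 to 0.67) in Twist cKO and -0.52 (SE 0.75, interval -2.22 to 1.19) in Snail cKO. Leaving out Twist cKO replicate 2 moved the first to -0.11, and leaving out Snail cKO replicate 2 moved the second to -0.19. A second Mmp14 probe was detected on 1 array, KPC replicate 1, and was not kept.

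TIMP1 is a secreted inhibitor of most MMPs and is known to increase with inflammation and fibrosis. Timp1 had 12.78, 7.22 and 13.52 in Twist cKO, 14.10, 11.93 and 12.45 in Snail cKO and 13.48, 13.80 and 12.81 in KPC. Twist cKO replicate 2 was far below the others, and the other 8 tumours lay within 11.93 to 14.10. The Twist cKO minus KPC difference of -2.19 (SE 1.46, interval -5.51 to 1.14, limma, adjusted p = 0.978) was the largest in size among the members in that comparison, and it was -0.21 without Twist cKO replicate 2. The Snail cKO minus Twist cKO difference of 1.65 (SE 1.46, limma, adjusted p = 0.986) turned to -0.32 without that tumour. For Snail cKO against KPC the difference was -0.54 (SE 1.46, interval -3.86 to 2.79). A second Timp1 probe gave 12.78, 6.99 and 13.35 in Twist cKO, 13.81, 11.98 and 12.32 in Snail cKO and 13.16, 13.82 and 12.56 in KPC, with Twist cKO replicate 2 again the lowest tumour.

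TIMP3 is held in the matrix and also inhibits ADAM proteases such as ADAM17. Timp3 had 12.35, 11.58 and 11.89 in Twist cKO, 11.39, 10.92 and 11.95 in Snail cKO and 9.69, 12.58 and 11.95 in KPC. KPC again held both ends of the range, with replicate 1 low. The differences from KPC were 0.54 (SE 0.68, interval -1.02 to 2.09) in Twist cKO and 0.01 (SE 0.68, interval -1.54 to 1.57) in Snail cKO, and without KPC replicate 1 they were -0.32 and -0.84. The other Timp3 probes were dim, detected on 6 and 7 arrays. Their Snail cKO minus KPC differences of -0.28 and -0.75 were below that of the bright probe but inside its interval. For Twist cKO minus KPC they gave 0.10 and 0.06, the same direction as the bright probe.

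As a group, 8 of the 10 genes had a lower mean in Twist cKO than in KPC, with a median difference of -0.80, and 6 of 10 by the authors' processed value table, against 56.3% of all genes tested with a median of -0.07. Mmp7 and Timp3 were the 2 with a higher Twist cKO mean. In Snail cKO against KPC, 6 of 10 were lower (median -0.53, also 6 of 10 by the processed value table), against 54% of all genes, and the 4 higher were Mmp9, Mmp12, Mmp13 and Timp3. In Snail cKO against Twist cKO, 6 of 10 were higher (median 0.48, also 6 of 10 by the processed value table), against 6021 of 11537 genes. Processed values below 16 were set to 16 before log2 was taken. Column medians over all probes lay below this floor in KPC replicates 1 and 2 and in replicate 3 of both cKO groups. The part of the floor in the counts and medians from the processed values was not tested. With the floor, the median of all genes shifted to 0.22 for Twist cKO and 0.28 for Snail cKO against KPC. Of all genes, 31% and 24.4% were lower there, and the members' medians were -0.51 and -0.15. The Twist cKO count moved with the tumours left out, those of KPC among them. It was 6 of 10 without KPC replicate 2. Without KPC replicate 1 and Twist cKO replicate 2 together it was 7 of 10 (median -0.145). Without Twist cKO replicate 2, 4 of 10 genes were lower than in KPC (median 0.46), against 6340 of 11537 genes. There, 7 of 10 were lower in Snail cKO than in Twist cKO (median -0.43), against 49.2% of all genes. Without KPC replicate 1, 10 of 10 were lower in Twist cKO and 9 of 10 in Snail cKO than in KPC, against 55.6% and 54.1% of all genes. With array set as a term in the fit, 5 of 10 were lower in Twist cKO (median 0.04) and 4 of 10 in Snail cKO (median 0.35). The shares of all genes lower were 55.2% and 53.6% there. No KPC array is in set 2, so the set term was estimated from the cKO tumours alone and assumed to hold for KPC. The comparisons with KPC share the 3 KPC tumours, and Twist cKO is shared likewise, so their counts are not independent of each other. For both cKO groups against KPC, 8 of 10 were lower (median -0.46, 7 of 10 by the processed value table), with a limma adjusted p of 0.999 for every member. Of all genes, 55.3% were lower in that comparison, and 24.7% by the processed value table.

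**Figure D2:**
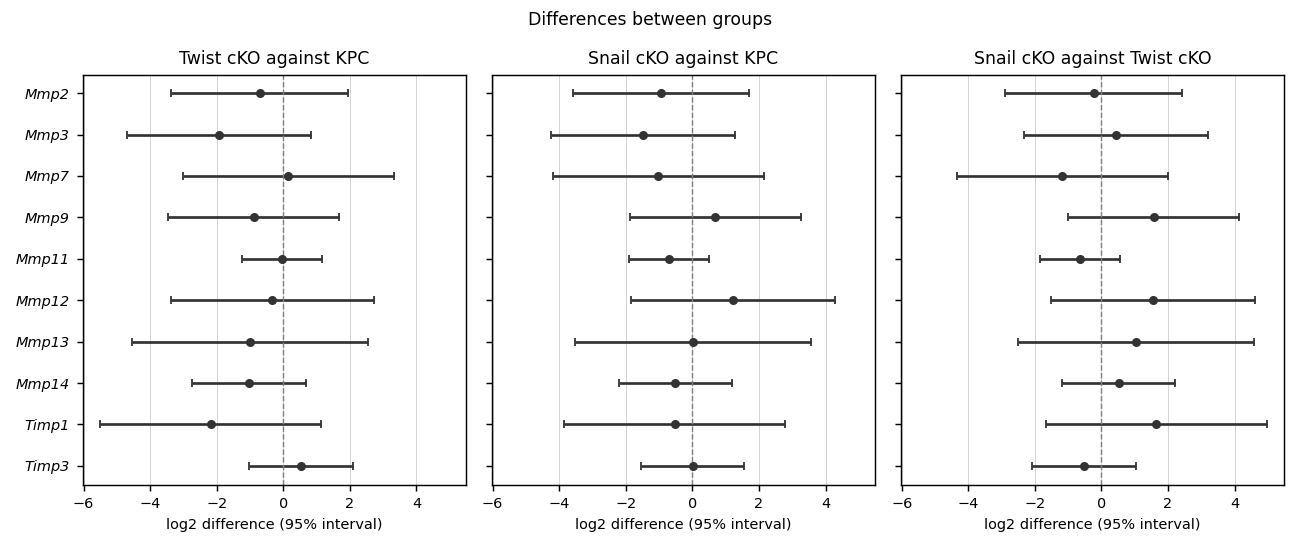
Log2 difference (horizontal axis) of each gene in 3 panels (Twist cKO against KPC, then Snail cKO against KPC, then Snail cKO against Twist cKO), with the 95% interval of the limma fit as a bar. Every interval includes 0, and the intervals are narrowest for Mmp11 (SE 0.53).

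**Figure D3:**
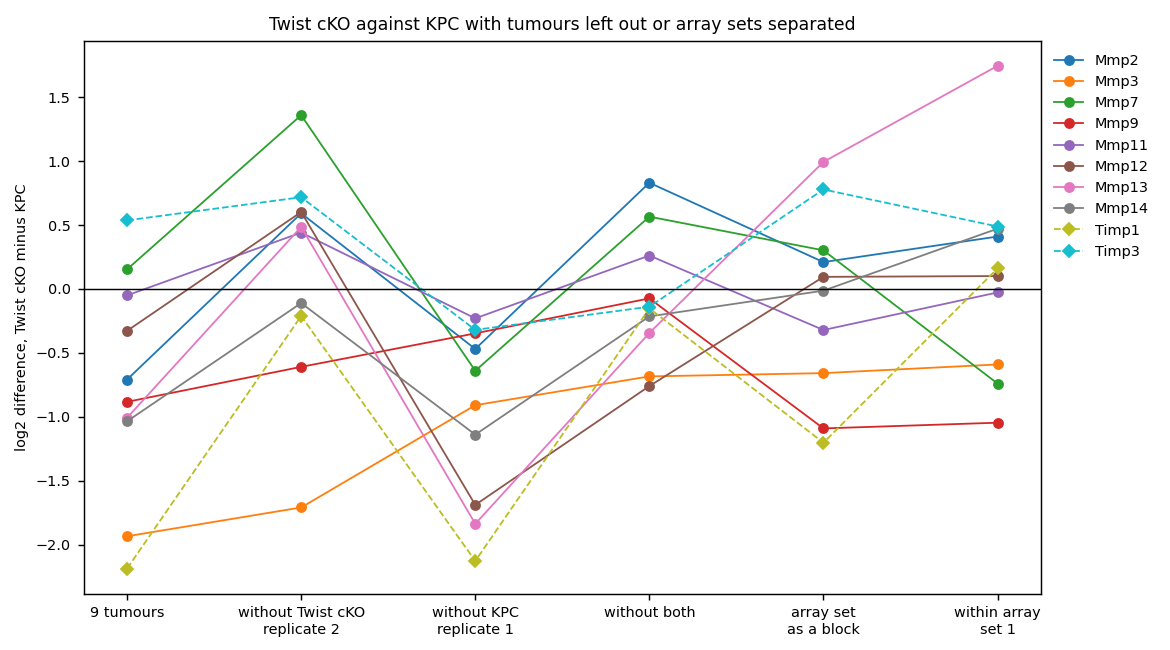
Log2 difference, Twist cKO minus KPC (vertical axis), of each gene with all 9 tumours, with tumours left out, with array set as a block term and within array set 1, dashed lines for the TIMPs. Timp1 moves to -0.21 and Mmp2 to 0.59 without Twist cKO replicate 2, and Mmp13 to 1.74 within array set 1.

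The spread between tumours of 1 genotype was wide for these genes. The pooled SD within groups was 0.71 (Mmp11) to 2.26 (Mmp13), with a median of 1.72, against a median of 0.49 over all genes tested. The range over the 9 tumours was 2.17 log2 units for Mmp11, 6.56 for Mmp13 and 6.88 for Timp1, against a median of 1.51 for all genes. The share of a gene's variance that lay between the 3 groups was 6.36% (Mmp13) to 25.1% (Mmp3), with a median of 17%, against 19.3% over all genes. Twist cKO replicate 2 was below the 9-tumour mean for 10 of 10 genes and was the lowest tumour for 5 (Mmp2, Mmp7, Mmp13, Mmp14 and Timp1). Snail cKO replicate 2 was below the mean for 9 of 10 and the lowest for Mmp3 and Mmp9. KPC replicate 2 was below the mean for 0 of 10 and the highest for Mmp12, Mmp13 and Timp3.

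The 2 tumours in which most members were low also differed from the rest in markers of cell types. The 12 fibroblast markers summed to an intensity of 12000 in Twist cKO replicate 2 and 10000 in Snail cKO replicate 2, against 32300 and 41200 in the other Twist cKO tumours, 37600 and 38000 in the other Snail cKO tumours and 26500 to 44500 in KPC. The fibroblast markers were detected all the same, 11 of 12 in each of these 2 tumours. The 12 epithelial and duct markers summed to 893 in Twist cKO replicate 2 and to 56600 in Snail cKO replicate 2, against 7120 to 61100 in KPC. The lymphocyte markers were above the KPC range in both tumours. The 4 B and plasma cell markers summed to 15400 in Twist cKO replicate 2 and 1710 in Snail cKO replicate 2, against 119 to 431 in KPC, and the 2 T cell markers to 7860 and 318 in these tumours, against 44.8 to 83 in KPC. The 5 adipocyte markers summed to 24200 in Twist cKO replicate 2 and 2640 in Snail cKO replicate 2, against 2110 to 2430 in KPC. Snail cKO replicate 2 did not stand apart in this list, since Twist cKO replicate 1 had 2830. The macrophage markers ran opposite ways, with the highest sum of the 6 cKO tumours in Twist cKO replicate 2 (37600) and the lowest of all 9 in Snail cKO replicate 2 (10200). Snail cKO replicate 2 was also the tumour with the fewest detected probes (36.9%, against 41.7% to 43.3% in the other 8). Without it, 5 of 10 members were lower in Snail cKO than in KPC, with a median difference of -0.02, against 53.4% of all genes. The part of these markers and of the detection in the member values was not tested.

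**Figure D4:**
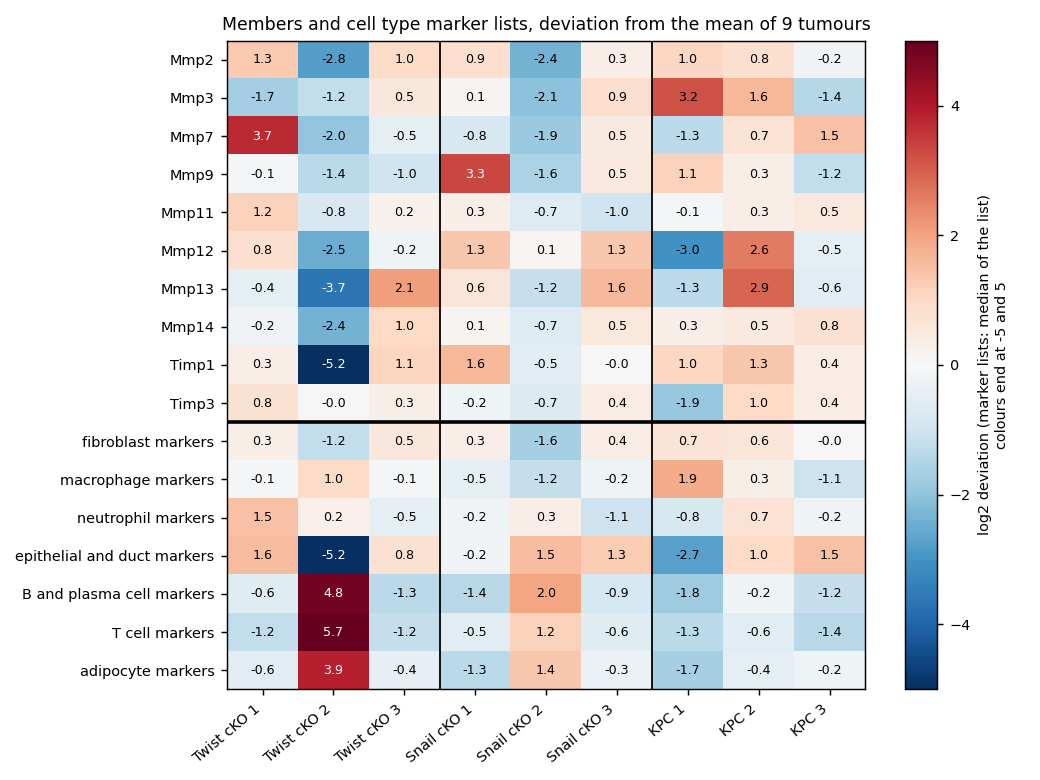
Log2 deviation of each tumour from the mean of 9 tumours, for the 10 genes above the line and, below it, the median deviation of each marker list, with Twist cKO, Snail cKO and KPC tumours from left to right. Twist cKO replicate 2 is below 0 for 10 of 10 genes and has the lowest epithelial and duct markers (-5.20).

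Members were set against the fibroblast, macrophage, neutrophil and epithelial and duct lists over the 9 tumours, which gave 40 relations. None passed Benjamini-Hochberg adjustment over the 40 by Pearson r or Spearman rho with exact permutation p-values, and 7 had an unadjusted Pearson p under 0.05. Those 7 were Mmp2, Mmp3, Mmp14 and Timp1 with fibroblast markers, Mmp3 with macrophage markers, and Mmp12 and Mmp13 with epithelial and duct markers. Without the 2 tumours farthest out in the list, r was -0.008 for Mmp14 and 0.469 for Timp1. It was 0.096 for Mmp3 with macrophage markers, -0.302 for Mmp12 and -0.389 for Mmp13. Mmp3 and the fibroblast markers had r = 0.703 (exact permutation p = 0.0315, adjusted 0.277) and rho = 0.917 (exact permutation p = 0.00131, adjusted 0.0525). Without Snail cKO replicate 2 and Twist cKO replicate 2, the tumours farthest out in the fibroblast markers, r for Mmp3 was 0.847, and with the means of the array sets removed it was 0.500. For Mmp2, those 2 tumours formed a group of their own, low in Mmp2 and in the fibroblast markers, and over the other 7 tumours r was 0.656. Mmp12 and the macrophage markers had a negative r (r = -0.563, exact permutation p = 0.113, adjusted 0.347, and rho = -0.3, exact permutation p = 0.437, adjusted 0.832). Without KPC replicate 1 and Snail cKO replicate 2 this r was -0.298, and with set means removed it was -0.581. Mmp7 and the epithelial and duct markers had r = 0.577 (exact permutation p = 0.101, adjusted 0.347) and rho = 0.633 (exact permutation p = 0.076, adjusted 0.588), and r = 0.403 without KPC replicate 1 and Twist cKO replicate 2 and 0.569 with set means removed. The sets hold 5 and 4 arrays, too few for an r within a set.

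**Figure D5:**
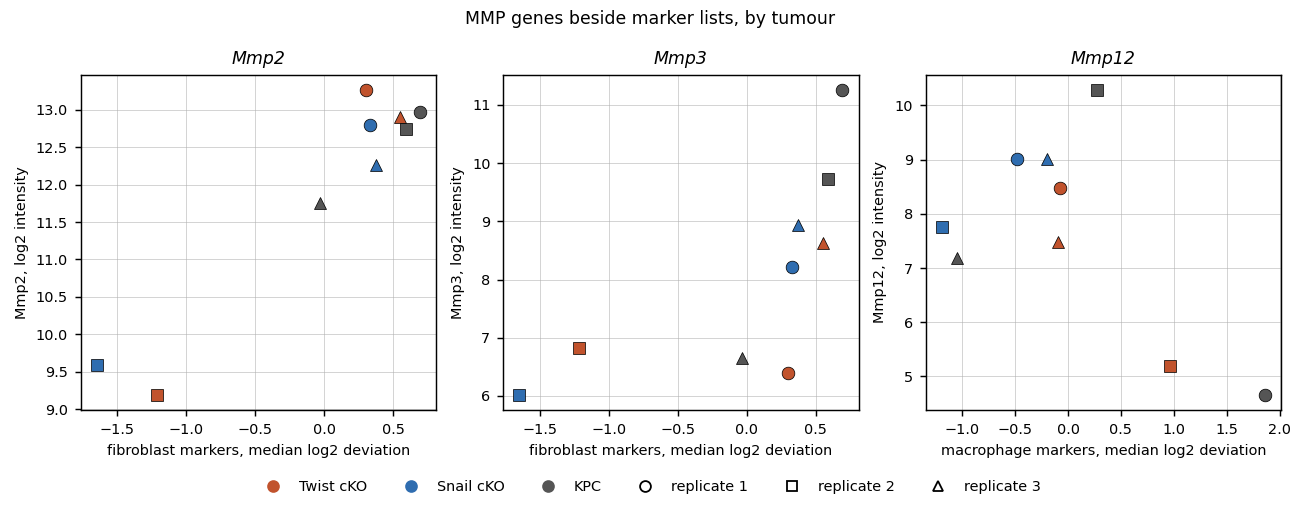
Log2 intensity of Mmp2 and Mmp3 (vertical axes) against the median log2 deviation of the fibroblast markers, and of Mmp12 against that of the macrophage markers (horizontal axes), 1 point per tumour, coloured by group. Twist cKO replicate 2 and Snail cKO replicate 2 stand apart at the left of both fibroblast panels, and KPC replicate 1 lies at the lower right of the macrophage panel.

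Between members, 45 pairs were compared over the 9 tumours. None passed adjustment over the 45 by Pearson r or Spearman rho, and 8 had an unadjusted Pearson p under 0.05. Mmp12 and Mmp13, neighbours on chromosome 9, had r = 0.782 (exact permutation p = 0.013, adjusted 0.136) and rho = 0.767 (exact permutation p = 0.0214, adjusted 0.429). It was 0.529 without KPC replicate 2 and Twist cKO replicate 2 and 0.912 with set means removed. Mmp7 and Mmp11 had r = 0.722 (exact permutation p = 0.0259, adjusted 0.166) and rho = 0.733 (exact permutation p = 0.0311, adjusted 0.429). Their r was 0.925 without Snail cKO replicate 3 and Twist cKO replicate 2, and 0.729 with set means removed. Twist cKO replicate 2 stood apart for Timp1, so Timp1 and Mmp14 are given without it and Snail cKO replicate 1, where r was 0.634, and Timp1 and Mmp2 likewise, where r was 0.750. Mmp13 and Timp1 had r = 0.748, and 0.500 without those tumours. Without replicate 2 of both cKO groups, r of Mmp2 and Mmp14 went from 0.783 to -0.548, and r of Mmp13 and Mmp14 from 0.795 to 0.42. Mmp12 and Timp3 had r = 0.702, and 0.524 without KPC replicate 1 and Snail cKO replicate 2.

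The genes whose log2 intensity followed a member most closely over the 9 tumours, of all genes tested apart from the other members and 324 genes with predicted or clone names, were taken as the 3 of highest Pearson r and are a description with no test. They were Pcnx (r = 0.981), Sparc (0.977) and Fstl1 (0.975) for Mmp2, the last 2 of which are in the fibroblast marker list. For Mmp3 they were Bcl6b (r = 0.961), Frmd6 (0.960) and Dab2 (0.960). Mmp7 was followed by Hpcal4 (r = 0.976), Stx3 (0.972) and Muc20 (0.954), and Mmp9 by Rbpms2 (r = 0.985), Cd34 (0.965) and Tmem65 (0.948). For Mmp11 the 3 were Nfxl1 (r = 0.950), Rxylt1 (0.947) and Btbd7 (0.941), and for Mmp12 Vsig2, Macc1 and Nfe2l3 (r = 0.919 each). Mmp13 was followed by Mical2 (r = 0.957), Tnfrsf11b (0.936) and Aplnr (0.935), and Mmp14 by Kctd5 (r = 0.976), F2r (0.972) and Bmp1 (0.969). For Timp1, where Twist cKO replicate 2 stands apart, the 3 were Tpbg, Uaca and Vasn, with r = 0.914, 0.846 and 0.690 over the other 8 tumours. Timp3 had Tmem176a (r = 0.949), Serping1 (0.948) and Ramp1 (0.941). Ranks followed less closely for several of these genes, with Spearman rho of 0.683 for Nfe2l3, 0.750 for Ramp1 and 0.783 for each of Macc1, Bmp1 and Vasn. Without Twist cKO replicate 2 and Snail cKO replicate 2, r for Mmp2 was 0.816 with Pcnx, 0.753 with Sparc and 0.883 with Fstl1, and r of Mmp14 and Bmp1 was 0.687.

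Of 18 other MMP, TIMP and Reck genes, 8 could be tested, and 0 passed in any comparison. In Twist cKO against KPC, 2 of the 8 were lower (1 of 8 by the processed value table), and 4 of 8 without Twist cKO replicate 2. The shares of all genes lower were 56.3%, 31% and 55% in that order. Timp2, an inhibitor that also takes part in the activation of pro-MMP2, had 12.34, 11.29 and 13.11 in Twist cKO, 12.93, 11.51 and 12.57 in Snail cKO and 13.36, 12.48 and 12.99 in KPC. The difference from KPC was -0.69 (SE 0.54) in Twist cKO and -0.61 (SE 0.54) in Snail cKO, with the lowest tumours again replicate 2 of both cKO groups. Reck, a membrane-anchored inhibitor of MMPs, had 5.97, 4.66 and 6.83 in Snail cKO and 7.43, 7.05 and 6.26 in KPC, a difference of -1.10 (SE 0.59, limma, adjusted p = 1). Reck was above background in 2 of the 3 Snail cKO tumours. Mmp10, stromelysin 2, which lies in the cluster on chromosome 9, was detected on 7 arrays and was chosen after its values were seen. It had 6.53, 4.51 and 9.38 in Twist cKO, 8.71, 4.80 and 8.42 in Snail cKO and 5.87, 9.03 and 5.28 in KPC, with differences from KPC of 0.08 and 0.58 in Twist cKO and Snail cKO.

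Of 16 genes of the plasminogen system and of MMP activation, 11 could be tested and 0 passed in any comparison, with Plau the 1 gene at an unadjusted limma p under 0.05. In Twist cKO against KPC, 9 of 11 were lower (median -0.74), 7 of 11 by the processed value table and 7 of 11 without Twist cKO replicate 2. The shares of all genes lower were 56.3%, 31% and 55% in that order. Plau, the urokinase that makes plasmin, had 12.59, 8.71 and 11.53 in Snail cKO, 8.54, 7.63 and 7.34 in Twist cKO and 7.74, 10.06 and 8.14 in KPC. All 3 Snail cKO tumours lay above all 3 Twist cKO tumours, the closest at 8.71 against 8.54, and they overlapped with KPC. Snail cKO and Twist cKO did not overlap, in either direction, for 8.22% of all genes. The difference was 3.11 (SE 0.98, limma, adjusted p = 0.986) for Snail cKO against Twist cKO and 2.30 (SE 0.98, limma, adjusted p = 1) for Snail cKO against KPC. Plaur, the urokinase receptor, had 9.43, 6.93 and 10.55 in Twist cKO and 9.46, 10.84 and 10.47 in KPC, a difference of -1.29 (SE 0.81), with Twist cKO replicate 2 the lowest tumour.

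Among 14 ADAM and ADAMTS proteases tested of 17, 0 passed, and 8 of 14 were lower in Twist cKO than in KPC (7 of 14 by the processed value table). The shares of all genes lower were 56.3% and 31%. Adamts1 had 6.06, 4.96 and 5.79 in Snail cKO and 6.63, 6.25 and 6.26 in KPC, with every Snail cKO tumour below every KPC tumour (difference -0.78, SE 0.42, limma, adjusted p = 1), as the groups did not overlap for 8.69% of all genes. Adamts1 was above background in 2 of the 3 Snail cKO tumours. Of 13 MMP substrates tested of 14, 0 passed. By mean, 11 of 13 were lower in Twist cKO and 11 of 13 in Snail cKO than in KPC (8 and 6 of 13 by the processed value table). Without replicate 2 of the cKO group in question the counts were 5 of 13 in Twist cKO and 5 of 13 in Snail cKO, against 55% and 53.4% of all genes. With array set as a term they were 4 of 13 and 1 of 13, against 55.2% and 53.6%. Col1a1, a chain of the main fibrillar collagen, had 10.95, 6.16 and 12.38 in Twist cKO and 12.20, 11.37 and 11.16 in KPC, a difference of -1.75 (SE 1.47). Its lowest tumour was again Twist cKO replicate 2.

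Of 20 genes of AP-1, ETS factors and cytokines that induce MMP genes, 17 could be tested and 0 passed. In Twist cKO against KPC, 13 of 17 were lower (10 of 17 by the processed value table), and 12 of 17 without Twist cKO replicate 2. The shares of all genes lower were 56.3%, 31% and 55% in that order. Jund, an AP-1 subunit, had 6.37, 6.17 and 6.23 in Twist cKO and 5.56, 5.84 and 5.64 in KPC, with no overlap, as for 8.06% of all genes (difference 0.57, SE 0.23, limma, adjusted p = 0.978). Etv5, a PEA3-type ETS factor, had 8.44, 8.04 and 8.24 in Snail cKO and 7.42, 6.57 and 7.71 in Twist cKO, with no overlap, as for 8.22% of all genes (difference 1.01, SE 0.37, limma, adjusted p = 0.986). Osm, the cytokine oncostatin M, had 6.60, 5.93 and 6.09 in Snail cKO and 7.73, 7.25 and 7.30 in KPC, with every Snail cKO tumour lower, as the groups did not overlap for 8.69% of all genes (difference -1.22, SE 0.43, limma, adjusted p = 1).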

How the data were processed

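The authors deposited, per the file headers, for 45281 probes on each of 9 arrays, the mean bead intensity with its detection p-value, and a second table of processed intensity values. The submitters' processing notes name GenomeStudio 5.0. The deposited intensity was linear and not normalized between arrays, judging from its values. In the processed table each column was a straight line of that array's bead intensity (slopes 0.795 to 1.16, intercepts -101 to -68.3), so its scale is linear, its direction that of the bead intensity and no gene was centred. How it was made is not stated in the sources used here. For the comparisons, its values below 16 were set to 16 before log2 was taken. Column medians of that table were 21.7, 22.4 and 11.2 in Twist cKO, 21.7, 23.3 and 9.3 in Snail cKO and 14.6, 13.7 and 17.3 in KPC. No genome build is named in the files.

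The function neqc of limma 3.58.1 (R 4.3.3) subtracted background estimated from the detection p-values, added an offset of 16, quantile-normalized the arrays and took log2. The platform annotation gave 1 symbol to 34885 probes, several to 18 and none to 10378, and only the first were used. A probe was kept when 3 or more of the 9 arrays gave it a detection p-value under 0.05, and a gene was represented by its kept probe of highest mean. One limma model with a mean per group was fitted to the 9 arrays (lmFit, eBayes, two-sided), with Benjamini-Hochberg adjustment over 11537 genes and a threshold of 0.05. Each p-value rests on the spread between tumours that the labels give as separate mice, and precision is limited by the number of arrays. Single genes were also compared by exact permutation, and marker list values are medians or sums over the tested markers. Promoter windows are those of RefSeq for GRCm38.p6, searched in Python 3.11.15 with pandas 2.3.3.

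The members and all gene lists were chosen with earlier results of these data known. Named genes were the members with every probe, up to 4 genes of smallest p per list and comparison, of which examples were chosen after their values were seen, and the 3 genes most like each member. Alternatives covered background correction, normalization, offset, the processed table, the filter, the probe rule, the array set, the arrays fitted, trend and robust moderation, and leaving out tumours. The scaling and left-out tumours were applied to the other lists, and left-out tumours to the genes most like each member, after the data had been seen.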

Additional observations from a re-analysis of the deposited data

How the results depend on the processing

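No member passed an adjusted limma p of 0.05 under any alternative run, the smallest being 0.605, so only directions and sizes could move, and in each case the cause was not tested. Cyclic loess, both other filters on dim probes, the arrays of the compared groups alone and trend and robust moderation kept every member's direction. The number of genes called stayed 0 except without Twist cKO replicate 1, with 3 for Twist cKO against KPC and 1 for Snail cKO against Twist cKO. The replicate numbers pair no samples. No paired analysis was possible because the labels number the mice 1 to 9 across the groups, and replicates 1 to 3 were numbered here in that order within each group. A fit of the compared groups alone was not run for both cKO groups against KPC, which uses all arrays. Among the members, detection limits Mmp7 and Mmp12, which were not above background in 2 tumours and 1 tumour.

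These log2 differences changed sign. Without background correction they were 0.0083 for Mmp11 in Twist cKO against KPC, and -0.039 for Mmp13 and -0.0046 for Timp3 in Snail cKO against KPC. At an offset of 50, Mmp13 in Snail cKO against KPC was -0.0040. In the processed value table with values below 16 set to 16, Twist cKO against KPC was 0.27 for Mmp11 and 0.0049 for Mmp12. There, both cKO groups against KPC was 0.23 for Mmp9. With the mean of all kept probes, Snail cKO against KPC was -0.012 for Mmp13 and -0.34 for Timp3, and both cKO groups against KPC was -0.054 for Timp3.

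With the array set as a block, Twist cKO against KPC was 0.21 for Mmp2, 0.095 for Mmp12 and 0.99 for Mmp13. Snail cKO against KPC was 0.51 for Mmp14 and 0.45 for Timp1, and both cKO groups against KPC was 0.093 for Mmp2, 1.51 for Mmp13 and 0.25 for Mmp14. Within array set 1, Twist cKO against KPC was 0.41 for Mmp2, -0.74 for Mmp7, 0.10 for Mmp12, 1.74 for Mmp13, 0.47 for Mmp14 and 0.16 for Timp1. There, Snail cKO against KPC was 0.17 for Mmp7 and 0.021 for Mmp14. Snail cKO against Twist cKO was 0.91 for Mmp7, -0.47 for Mmp13, -0.45 for Mmp14, -1.08 for Timp1 and 0.056 for Timp3. Both cKO groups against KPC was 0.093 for Mmp2, 1.51 for Mmp13 and 0.25 for Mmp14. That set holds 1 tumour of each cKO group, assumed to vary like the others. Set 2 holds no KPC array, so for both cKO groups against KPC the block fit and the fit within set 1 give the same differences. They are not separate checks.

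Without KPC replicate 1 and Twist cKO replicate 2 together, Twist cKO against KPC was 0.83 for Mmp2, 0.26 for Mmp11 and -0.14 for Timp3, and Snail cKO against KPC was -0.14 for Mmp12, -0.80 for Mmp13 and -0.84 for Timp3. Snail cKO against Twist cKO was -0.46 for Mmp13, -0.41 for Mmp14 and -0.32 for Timp1, and both cKO groups against KPC was 0.064 for Mmp2, 0.58 for Mmp9, -0.45 for Mmp12 and -0.49 for Timp3.

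Leaving out each tumour in turn, these ranges crossed 0. Twist cKO against KPC ran from -1.45 to 0.59 for Mmp2, -1.50 to 1.36 for Mmp7, -0.53 to 0.44 for Mmp11, -1.69 to 1.13 for Mmp12, -2.38 to 0.49 for Mmp13 and -0.32 to 1.12 for Timp3. Snail cKO against KPC ran from -1.57 to 0.039 for Mmp2, -0.59 to 1.85 for Mmp9, -0.14 to 2.67 for Mmp12, -0.80 to 1.31 for Mmp13 and -0.84 to 0.60 for Timp3. Snail cKO against Twist cKO ran from -1.53 to 0.75 for Mmp2, -0.16 to 1.29 for Mmp3, -2.38 to 0.47 for Mmp7, -0.46 to 2.41 for Mmp13, -0.41 to 1.27 for Mmp14 and -0.32 to 2.82 for Timp1. Both cKO groups against KPC ran from -1.26 to 0.17 for Mmp7, -0.74 to 0.48 for Mmp9, -0.92 to 1.90 for Mmp12, -1.32 to 0.79 for Mmp13 and -0.58 to 0.86 for Timp3.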

Other observations

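Of the MMP and TIMP genes that the report does not test, Mmp16 and Timp4 each lay above the rest in 1 tumour. Mmp16, a membrane-type MMP, had 4.47, 4.64 and 4.82 in Twist cKO, 5.13, 4.50 and 4.66 in Snail cKO and 6.66, 4.62 and 4.48 in KPC, and was detected on 2 arrays. Timp4 had 4.54, 7.40 and 4.63 in Twist cKO, 4.49, 4.77 and 4.70 in Snail cKO and 4.53, 4.44 and 4.68 in KPC, and was detected on 1 array, with Twist cKO replicate 2 the highest tumour. That tumour was below its 9-tumour mean for all 10 members. Mmp8, known from neutrophils, was detected on 1 array, and Mmp1b, Mmp20 and Mmp21 on 0 of 9 arrays.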
